A study of Mus musculus with 18 samples.

Results

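Isolated distal peaks are accessible regions that stand alone in the genome. They were taken as the peaks outside promoters with no other peak, promoter or distal, within 30 kb of either edge, and 2748 of the 157614 distal peaks, or of the 194284 peaks in all, met this rule. The rule used positions only. The nearer neighbour of an isolated peak was a median of 52602.5 bp away, with an interquartile range of 37664 to 93889 bp, against a median of 552 bp for the other 154866 distal peaks. The gaps of 16 isolated peaks were open on one side because the peak was the first or last of its chromosome.

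The assay was ATAC-seq, in which a transposase cuts open DNA and leaves sequencing adapters there, so that reads over a region count its accessibility. The cells were bone marrow-derived macrophages (BMDMs) of 3 Il10-/- mice on the C57BL/6J background, 12-week-old males, grown in L929-conditioned medium, and all groups therefore lacked the cells' own IL-10. The 6 groups of 3 libraries were Unstimulated, 500 nM (+)-JQ1, 10 ng/mL IL-10, LPS, LPS + (+)-JQ1 and LPS + IL-10, where (+)-JQ1 or IL-10 was given 12 hours before LPS (50 ng/mL) or PBS and all cells were collected 4 hours later, at 16 hours. Wild-type cells are not analysed here. The paper lists a vehicle control among the treatments before LPS and describes the unstimulated control cells as untreated. Whether those cells received vehicle is not clear from it, so a vehicle effect cannot be told apart in comparisons with Unstimulated.

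LPS is a bacterial cell wall component that macrophages sense through a Toll-like receptor. (+)-JQ1 displaces BET proteins, the bromodomain readers of acetylated histones, from chromatin, and IL-10 is a cytokine that restrains macrophage activation through STAT3. Macrophage enhancers are known to lie in dense groups around the genes of the lineage and to be bound by PU.1, C/EBP and AP-1 factors. CTCF is a zinc finger protein known for holding the anchors of chromatin loops and for binding many of the same sites in different cell types.

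The sequences below are from the genome of build mm9 (NCBIM37), forward strand. The first set shows 3 isolated peaks with a CTCF core match near their middle, since this motif had the largest ratio of its share in isolated peaks to that in other distal peaks among the 8 searched. They are the 3 with the highest signal per kb among such peaks and were chosen after the motif counts were seen. Capitals mark the CTCF core on either strand.
chr15:7213999-7214050, intron of Egflam: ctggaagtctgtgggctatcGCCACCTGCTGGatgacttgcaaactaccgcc
chr3:63843805-63843856, intergenic: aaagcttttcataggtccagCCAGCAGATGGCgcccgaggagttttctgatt
chr13:61343101-61343150, intergenic: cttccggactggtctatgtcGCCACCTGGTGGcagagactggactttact

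The second set shows the central 200 bases of the isolated peaks with the largest changes in accessibility under LPS and under (+)-JQ1 or IL-10 with LPS, of the strongest isolated peak and of the most isolated one, whose values follow further on. Capitals mark every match to a motif searched.
Largest increase with LPS, largest decrease with LPS + (+)-JQ1, chrX:101955746-101955945, with an AP-1 and 2 RUNX matches: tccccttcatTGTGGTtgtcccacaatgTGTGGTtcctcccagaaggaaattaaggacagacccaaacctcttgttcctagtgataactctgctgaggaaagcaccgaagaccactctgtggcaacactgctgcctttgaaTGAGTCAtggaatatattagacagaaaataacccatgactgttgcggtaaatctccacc
Largest decrease with LPS, chr17:11545694-11545893, with a PU.1 match: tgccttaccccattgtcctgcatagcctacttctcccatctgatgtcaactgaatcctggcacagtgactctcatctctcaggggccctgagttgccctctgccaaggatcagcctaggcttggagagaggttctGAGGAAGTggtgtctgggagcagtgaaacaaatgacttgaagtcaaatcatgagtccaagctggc
Largest increase with LPS + (+)-JQ1, chr13:28549407-28549606, with an AP-1, a C/EBP and 2 RUNX matches: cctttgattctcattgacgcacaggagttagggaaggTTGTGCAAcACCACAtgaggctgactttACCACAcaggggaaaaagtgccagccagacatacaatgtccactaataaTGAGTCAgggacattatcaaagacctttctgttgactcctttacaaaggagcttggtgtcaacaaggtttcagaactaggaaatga
Largest increase with LPS + IL-10, chr17:51061974-51062173, with no match: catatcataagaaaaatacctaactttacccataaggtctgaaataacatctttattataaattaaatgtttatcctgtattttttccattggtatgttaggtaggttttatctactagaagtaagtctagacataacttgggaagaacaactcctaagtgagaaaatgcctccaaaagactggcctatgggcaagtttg
Largest decrease with LPS + IL-10, chr17:21190010-21190209, with no match: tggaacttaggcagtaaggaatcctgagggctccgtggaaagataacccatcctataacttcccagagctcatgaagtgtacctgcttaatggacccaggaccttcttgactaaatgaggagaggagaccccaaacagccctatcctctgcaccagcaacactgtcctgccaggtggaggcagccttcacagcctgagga
Highest signal per kb, chr13:13981533-13981732, with no match: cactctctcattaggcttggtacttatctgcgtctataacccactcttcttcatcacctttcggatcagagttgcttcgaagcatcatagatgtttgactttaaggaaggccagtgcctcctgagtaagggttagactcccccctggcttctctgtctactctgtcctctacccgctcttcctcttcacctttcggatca
Farthest from any other peak, chr8:101520000-101520199, with no match: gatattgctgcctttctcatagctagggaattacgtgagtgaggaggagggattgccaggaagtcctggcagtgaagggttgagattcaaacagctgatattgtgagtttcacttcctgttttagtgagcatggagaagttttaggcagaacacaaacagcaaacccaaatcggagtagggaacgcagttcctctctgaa

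Total counts in peaks lay between 12020526 and 25908198 per library. TMM scaling factors were 1.04 to 1.24 in the unstimulated libraries and 0.896 to 1.05 in the others. All 8 macrophage marker genes had a peak at the transcription start site (TSS), with a summed signal of 855 to 1969 normalised counts per kb across libraries. A TSS peak was present for 1 of 5 T cell, 3 of 4 neutrophil and 4 of 4 fibroblast or epithelial genes, with sums of 64.0 to 138, 221 to 565 and 137 to 249, and no peak lay at the TSS of Cd3e or Ly6g. These sums cover unlike numbers of genes. In normalised counts per kb, Elane (74.5), Col1a1 (70.4) and Pdgfra (58.8) had medians above that of the macrophage marker Itgam (58.1). Mpo (32.1), Epcam (41.0) and Krt8 (18.2) were below it. The TSS peaks of S100a8, a neutrophil marker also made by other myeloid cells, and of Lck, a T cell kinase, had medians of 336 and 113 normalised counts per kb, above those of the macrophage markers Csf1r (90.9) and Cd68 (83.7), and their part in the results was not tested. In these bulk libraries, fewer open copies and fewer cells with an open site cannot be told apart.

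Isolated peaks were small and weak. Their median width was 641.5 bp against 913 bp for other distal peaks. Their median signal was 18.2 normalised counts, that is counts scaled to the mean effective library size, against 28.8 for other distal peaks, and 685 of the 2748 reached 30. Per kb the medians were closer, at 28.1 against 29.2 normalised counts per kb. The highest of the 18 libraries held a median of 9.67% of an isolated peak's signal and over 20% of it in 38 peaks. Assembly gaps lay within 30 kb of 24 isolated peaks, and none shared its central 200 bases with another peak.

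Isolated peaks lay mostly between genes. Of the 2748, 1736 (63.2%) were intergenic, 906 (33.0%) intronic and 106 (3.86%) exonic, against 37.3%, 46.0% and 16.7% of other distal peaks. The median distance to the nearest protein-coding TSS was 81803 bp, with a range of 23 to 2140260 bp, against 15419 bp for other distal peaks. That nearest TSS carried a peak itself for 37.2% of isolated peaks (95% Wilson interval 35.4 to 39.0) and for 75.7% of other distal peaks. The GC content was 43.4% in the central 500 bases and 41.0% in the surrounding 20 kb, against 46.2% and 44.7%. By chromosome, 1.74% of all distal peaks were isolated, from 1.09% on chromosome 11 to 2.30% on chromosome 18 among the autosomes, and 183 of 2729 (6.71%) on chromosome X.

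Genes of inflammation and of macrophage identity were the nearest coding gene of a smaller share of isolated than of other distal peaks, and neuronal genes of a larger share. Cytokine and chemokine genes, of which the list holds 44, were nearest to 1 isolated peak (0.0364%, against 0.320% of other distal peaks). The 71 signalling and transcription factor genes of the inflammatory response were nearest to 4 (0.146%, against 1.03%), and the 59 effector and interferon-induced genes to 2 (0.0728%, against 0.553%). A macrophage identity or lipid handling gene was nearest to 13 (0.473%) against 1.10% of other distal peaks. Genes of neuronal adhesion and synapses were nearest to 101 isolated peaks (3.68%, 95% interval 3.03 to 4.45) against 0.229% of other distal peaks, and 45 of the 85 genes on the list had at least 1. Olfactory and vomeronasal receptor genes were nearest to 54 (1.97%) against 0.248%, and cadherins and protocadherins to 19 (0.691%) against 0.207%. Gene length and spacing were not taken into account. The 2748 peaks were spread over 1951 nearest coding genes, led by Diap2, a formin, and Dlg2, a synaptic scaffold, with 8 each.

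Of the 8 motifs searched on both strands in the central 500 bases, the CTCF core differed most. It was found in 355 isolated peaks (12.9%, 95% interval 11.7 to 14.2), in 2.14% of other distal peaks, in 1.17% of promoter peaks and in 5 of 5490 windows (0.0911%) of the same length 5 kb to either side of the isolated peaks. PU.1 (GAGGAAGT), the site of the ETS factor of the macrophage lineage, was in 10.7% of isolated peaks, 6.91% of other distal peaks and 3.01% of flanking windows. AP-1 (TGANTCA), the site of Fos and Jun dimers, was in 23.4%, 19.2% and 14.3%. The ISRE (GAAANNGAA), the site of interferon regulatory factors, was in 22.0%, 16.8% and 19%, and C/EBP (TTGCNNAA) in 25.3%, 20.4% and 22.4%. RUNX (TGTGGT) was in 34.1%, 37.1% and 30.9%, the kappaB site in 4.99%, 5.37% and 4.01%, and the E-box (TCACGTG) in 2.07%, 2.59% and 1.95%. None of the 8 was found in 540 isolated peaks (19.7%). Matches are letters in a window and no measure of binding.

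The share with a CTCF core was higher where the nearer peak was farther away. Among distal peaks tested for accessibility, it was 1.42% at gaps up to 1 kb, 2.58% at 1 to 5 kb, 4.18% at 5 to 10 kb and 5.73% at 10 to 30 kb. Within the isolated peaks it was 10.4% at 30 to 50 kb, 12.7% at 50 to 100 kb, 17.9% at 100 to 300 kb and 21.1% of the 171 peaks over 300 kb from the next. Just outside the threshold, at 25 to 30 kb, it was 6.94% of 692 peaks, and just inside, at 30 to 35 kb, 8.01% of 487, so the threshold marks no step. PU.1 matches went from 5.56% at gaps up to 1 kb to 11.8% at 30 to 50 kb and were in 7.02% of peaks over 300 kb.

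**Figure D1:**
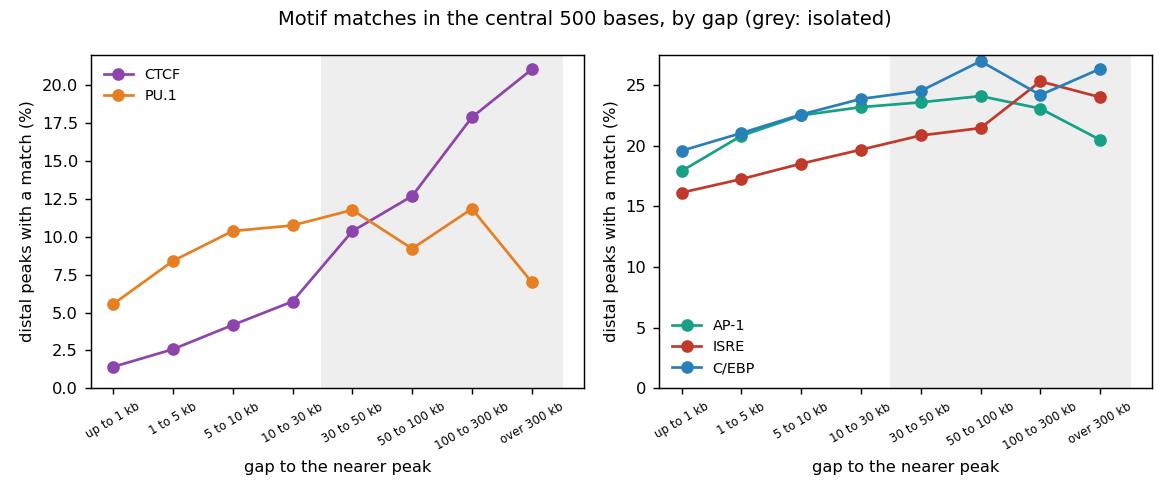
Share of tested distal peaks (y axis, percent) whose central 500 bases hold a CTCF or PU.1 match (left) or an AP-1, ISRE or C/EBP match (right), by the gap to the nearer peak (x axis); isolated peaks are on the grey ground. The CTCF share goes from 1.42% to 21.1%, while AP-1, ISRE and C/EBP stay between 16.1% and 26.9%.

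CTCF cores also sat nearest the middle of the peak. Of 358 matches in isolated peaks, 310 (86.6%) lay within 100 bp of the middle, against 67.7% of 328 PU.1 matches, 54.3% of 785 AP-1 matches and 44.5% of 1213 RUNX matches. Of the 355 isolated peaks with a CTCF core, 11 also held a PU.1 match and 57 an AP-1 match. Over all 2748 isolated peaks these 2 matches were in 293 and 644.

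**Figure D2:**
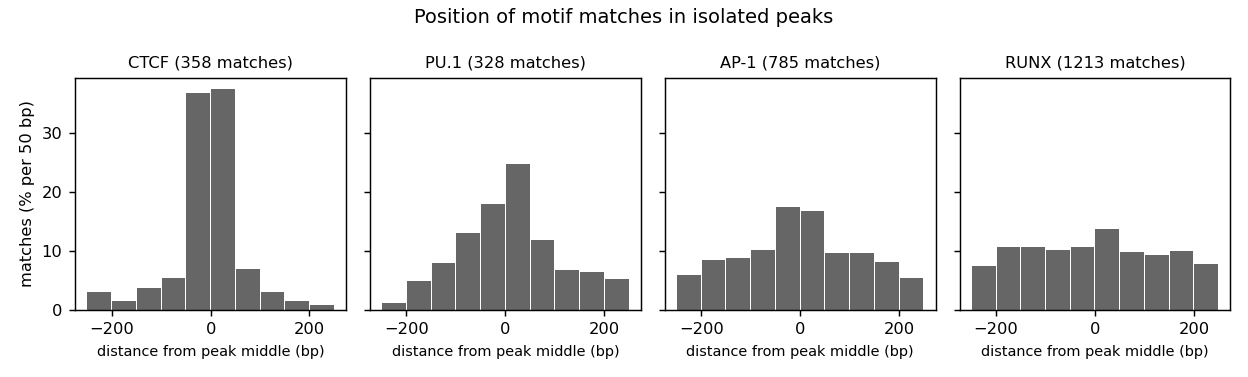
Position of motif matches in isolated peaks, as percent of all matches of that motif per 50 bp (y axis) against the distance from the peak's middle in bp (x axis), for CTCF, PU.1, AP-1 and RUNX. The 50 bp on either side of the middle hold 36.9% and 37.4% of the CTCF matches.

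A peak was called differentially accessible (DAR) where edgeR's quasi-likelihood fit over all peaks gave an FDR below 0.05 and a change of more than 0.5 on the log2 scale, and 2735 isolated peaks passed its filter on low counts. LPS against Unstimulated asks which regions open or close on stimulation. Increased DARs made up 170 of the isolated peaks (6.22%) against 11.7% of all peaks tested, and decreased DARs 362 (13.2%) against 10.2%. Their median log2 fold change was -0.09, and -0.03 over all peaks. The split depended on the scaling. It was 215 increased and 240 decreased with loess offsets, which level each library's trend with signal, and 91 and 554 with total counts, under which the median of all peaks moved to -0.26. In all, 532 isolated peaks were called, and 258 without replicate 1 and 238 without replicate 2. On chromosome X 14.2% of 183 isolated peaks increased and 3.83% decreased, against 5.65% and 13.9% on the autosomes, and other distal peaks on chromosome X showed 16.3% and 5.70%.

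Largest here means among called isolated peaks of at least 30 mean normalised counts that moved the same way in all 3 same-numbered pairs. The largest increase with LPS was at chrX:101954968-101956724, between genes, 88.4 kb from the next peak and 89.4 kb from the TSS of Zdhhc15, a palmitoyltransferase. Its normalised counts were 25.2, 27.96 and 13.4 in Unstimulated, 149, 87.5 and 92.3 after LPS alone, 69.4, 28.8 and 32.9 under LPS + (+)-JQ1 and 51.7, 54.6 and 36.4 with LPS + IL-10. All LPS libraries were above those of every other group. The log2 fold change was 2.31 (SE 0.28, edgeR adjusted p = 2.55e-11) for LPS, -1.40 (SE 0.25, adjusted p = 3.08e-05) for LPS + (+)-JQ1 against LPS, the largest decrease there too, and -1.22 for LPS + IL-10 against LPS. These comparisons share the LPS libraries, so a high LPS value enters all of them. The other large increases were 117 kb from Vrk2, a kinase gene, and 36.5 kb from Serpine2, a protease inhibitor gene, with log2 fold changes of 2.01 and 1.63.

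The largest decrease with LPS was at chr17:11545419-11546170, in an intron of Park2, the gene of the ubiquitin ligase parkin. It held 56.8, 64.2 and 68.2 normalised counts in Unstimulated, 14.7, 17.9 and 23.6 with LPS, 75.1, 68.7 and 67.3 with IL-10, 23.9, 22.9 and 18.2 with LPS + IL-10 and 5.79, 20.6 and 26.3 with LPS + (+)-JQ1. Libraries with LPS were low whatever else was given. The log2 fold change was -1.77 (SE 0.29, adjusted p = 4.50e-07). A second isolated peak in Park2, chr17:11300738-11301482, fell by 1.42 on the log2 scale. Decreases of 1.64 and 1.48 on the log2 scale followed at peaks 70.9 kb from P2ry1, an ADP receptor gene, and 126 kb from Npr3, a natriuretic peptide receptor gene.

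Isolated peaks with a CTCF core were seldom called with LPS. Of the 355, 3.38% increased and 0.845% decreased, against 6.64% and 15.1% of the 2380 without, and their median signal was 21.8 against 17.8 normalised counts. Per library, the mean log2 CPM (counts scaled to library size, prior count 2) of isolated peaks with the core minus those without was 0.26 with LPS and 0.02 in Unstimulated. This difference of 0.25 was positive in all 3 same-numbered pairs, with an exact two-sided permutation p of 0.1, the smallest that 3 against 3 can give, and 0.207 after adjustment over the 56 motif comparisons. The CTCF measure also differed from Unstimulated without LPS, by 0.14 with (+)-JQ1 alone and 0.19 with IL-10 alone. LPS moved it by 0.07 within (+)-JQ1 and by 0.06 within IL-10. The unstimulated libraries were the lowest group on average and were spread, at -0.09, 0.01 and 0.14. Peaks with an ISRE increased more often, 11.0% against 4.87%, with a per-library difference of 0.20 for LPS against Unstimulated (adjusted p = 0.207, exact permutation test). Peaks with a PU.1 match decreased in 17.7% against 12.7%, with a difference of -0.10 (adjusted p = 0.207, exact permutation test). Of the 135 tested peaks with a kappaB site, 12.6% increased and 11.9% decreased, against 5.88% and 13.3% of those without. The per-library difference for kappaB was 0.18, with overlap of the groups (exact permutation p = 0.2, adjusted 0.311). For AP-1 it was 0.10 (adjusted p = 0.207, exact permutation test), and for C/EBP, RUNX and E-box 0.005, -0.018 and 0.015. None of the 56 motif comparisons had an adjusted p below 0.207 in this test. The call shares by motif are given here for isolated peaks only, and whether they are particular to them was not tested.

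LPS + (+)-JQ1 against LPS asks what BET inhibition before stimulation changes. It gave 16 increased DARs (0.585%, against 1.74% of all peaks) and 66 decreased (2.41%, against 3.49%) among isolated peaks. Their median log2 fold change was -0.12, against -0.02 in other distal peaks. The 82 calls became 46, 34 and 31 without replicate 1, 2 and 3. After the peak near Zdhhc15, the largest decrease was at chr13:48322977-48323666, in an intron of the noncoding gene A330033J07Rik and 33.5 kb from Id4, an inhibitor of helix-loop-helix factors. Its normalised counts were 78.8, 77.2 and 67.5 after LPS alone and 11.6, 37.0 and 35.1 under LPS + (+)-JQ1 (log2 fold change -1.34, SE 0.25, edgeR adjusted p = 8.25e-05), and the groups did not overlap. The largest increase was at chr13:28549193-28549822, 315 kb from Prl5a1, a prolactin family gene. It held 26.8, 25.4 and 27.0 with LPS, 57.9, 88.5 and 74.5 with LPS + (+)-JQ1, and also 69.7, 63.4 and 56.2 with (+)-JQ1 alone against 26.5, 36.2 and 35.1 in Unstimulated, so both (+)-JQ1 groups were high. Increases of 1.06 near Gm8223 and 0.98 in Park2 lost their call without replicate 3 and without any 1 of the replicates, at adjusted p = 0.138 for the first and 0.0633 to 0.179 for the second in edgeR. The decrease near Serpine2 (-1.31) lost its call without replicate 2 (edgeR adjusted p = 0.0794).

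LPS + IL-10 against LPS asks what supplying IL-10 changes. Here 175 isolated peaks decreased (6.40%, against 4.51% of all peaks) and 32 increased (1.17%, against 4.26%). The median log2 fold change was -0.27, against 0.01 in other distal peaks and -0.06 in promoter peaks, and 71.0% of isolated peaks were below 0. The 207 calls became 108, 96 and 86 without replicate 1, 2 and 3. The largest decrease was at chr17:21189484-21190737, between genes and 40.03 kb from Gm6811, where normalised counts were 61.5, 41.4 and 45.0 with LPS and 16.3, 17.5 and 14.7 with LPS + IL-10 (log2 fold change -1.62, SE 0.30, edgeR adjusted p = 2.64e-05), while Unstimulated held 66.8, 53.8 and 46.5. The next were in an exon of Zbtb20, a transcriptional repressor gene, and 45.9 kb from Uprt, at -1.43 and -1.36. The first of these lost its call without replicate 1 (edgeR adjusted p = 0.0530).

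The largest increase with LPS + IL-10 was at chr17:51061530-51062618 in an intron of Tbc1d5, a gene of membrane traffic. Normalised counts were 41.6, 34.2 and 43.4 in Unstimulated, 15.6, 26.4 and 27.0 with LPS and 71.8, 62.2 and 71.0 with LPS + IL-10 (log2 fold change 1.59, SE 0.26, edgeR adjusted p = 2.23e-06), so the LPS + IL-10 libraries were above all those of LPS and Unstimulated. The peak in an intron of Arhgap15, a regulator of Rac, held 37.2, 44.2 and 46.2 with LPS and 114, 122 and 93.5 with LPS + IL-10 (1.37, SE 0.21), and the peak in an intron of Gfra1, a receptor of the GDNF family, rose by 1.23.

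**Figure D3:**
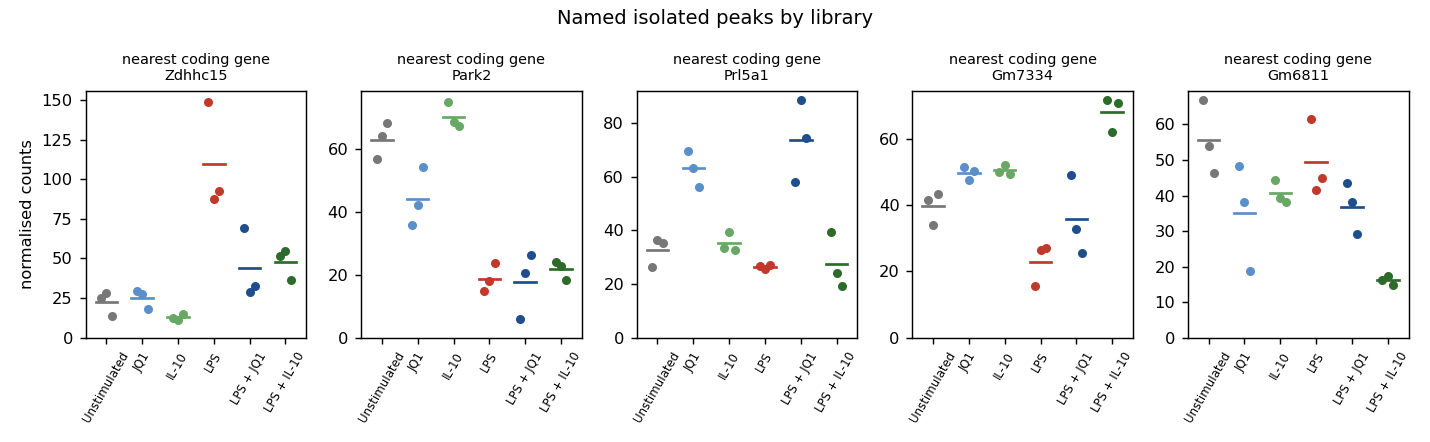
Normalised counts (y axis, from 0) of 5 isolated peaks in each of the 18 libraries by group, named by the nearest coding gene (Gm7334 for the peak in Tbc1d5, JQ1 for (+)-JQ1); points are libraries and lines are group means. At the peak near Zdhhc15 the LPS libraries lie at 87.5 to 149, and at the peak near Gm6811 the LPS + IL-10 libraries lie at 14.7 to 17.5.

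The lower level of isolated peaks with LPS + IL-10 was seen in every library. The mean log2 CPM of isolated minus other distal peaks was -0.64, -0.70 and -0.71 in Unstimulated, -0.71, -0.67 and -0.69 with (+)-JQ1 and -0.75, -0.69 and -0.68 with IL-10. It was -0.73, -0.82 and -0.75 with LPS, -0.87, -0.80 and -0.88 with LPS + (+)-JQ1 and -0.96, -0.95 and -1.09 with LPS + IL-10. The LPS + IL-10 libraries were below all others, and replicate 3 was the lowest. The difference from LPS was -0.24, in the same direction in all 3 pairs, with an exact two-sided permutation p of 0.1, the smallest possible, and 0.175 adjusted over the 7 comparisons, a design that cannot reach 0.05. Replicate 1 of every group was sequenced on lane 5 and replicate 3 on lane 6, while the lane of replicate 2 was 5 in groups that had no LPS and 6 in the rest. The difference was -0.23 within lane 5, with 1 library a group, and -0.24 within lane 6, with 2. It was -0.18 without replicate 3. Against IL-10 alone it was -0.29 (adjusted p = 0.175, exact permutation test). As a percent of all counts in peaks, isolated peaks held 0.357, 0.374 and 0.338 with LPS + IL-10, below all LPS libraries (mean 0.397). With LPS + (+)-JQ1 they held 0.356, 0.367 and 0.368, so these 2 groups overlapped. By this percent (+)-JQ1 alone (mean 0.396) and IL-10 alone (mean 0.423) lay below Unstimulated (mean 0.490) without overlap.

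**Figure D4:**
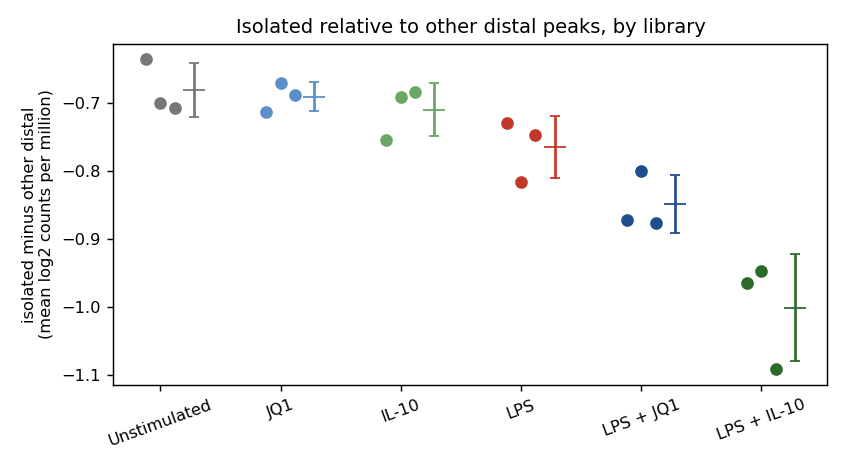
Mean log2 CPM of isolated distal peaks minus that of other distal peaks (y axis) in each of the 18 libraries by group (points), with the group mean and SD (n = 3) beside them. The LPS + IL-10 libraries, at -1.09 to -0.95, are below all others.

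In the remaining comparisons the difference in mean log2 CPM lay between -0.16 and -0.00967. For LPS + (+)-JQ1 against (+)-JQ1 it was -0.16, lower in 3 of 3 pairs and with no overlap of the groups (exact permutation p = 0.1, adjusted 0.175). For LPS against Unstimulated it was -0.08 (exact permutation p = 0.1, adjusted 0.175), but -0.000382 when isolated and other distal peaks were compared within classes of mean counts. For LPS + (+)-JQ1 against LPS it was -0.08 (exact permutation p = 0.2, adjusted 0.280), lower in 2 of 3 pairs. For (+)-JQ1 and IL-10 against Unstimulated it was -0.00967 and -0.03 (exact permutation p = 0.8 and 0.6, adjusted 0.8 and 0.7). For LPS + IL-10 against LPS it was -0.21 within classes of mean counts and -0.22 within classes of the GC content of the surrounding 20 kb. Both class-wise values were added after the data were seen.

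The LPS + IL-10 change also followed the gap. The median log2 fold change against LPS was 0.05 for distal peaks at gaps up to 1 kb, -0.04 at 1 to 5 kb, -0.08 at 5 to 10 kb, -0.15 at 10 to 30 kb, -0.24 at 30 to 50 kb, -0.28 at 50 to 100 kb and at 100 to 300 kb and -0.38 over 300 kb. Just outside and inside the threshold it was -0.20 and -0.21. Among isolated peaks it was -0.43 under 10 normalised counts, -0.31 at 10 to 20, -0.24 at 20 to 40, -0.22 at 40 to 80 and -0.15 at 80 or more, against -0.13, -0.05, 0.00, 0.03 and 0.04 for other distal peaks. It was -0.25 in isolated peaks with a CTCF core and -0.28 in those without, and -0.28 where the nearest TSS carried a peak and -0.26 where it did not.

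**Figure D5:**
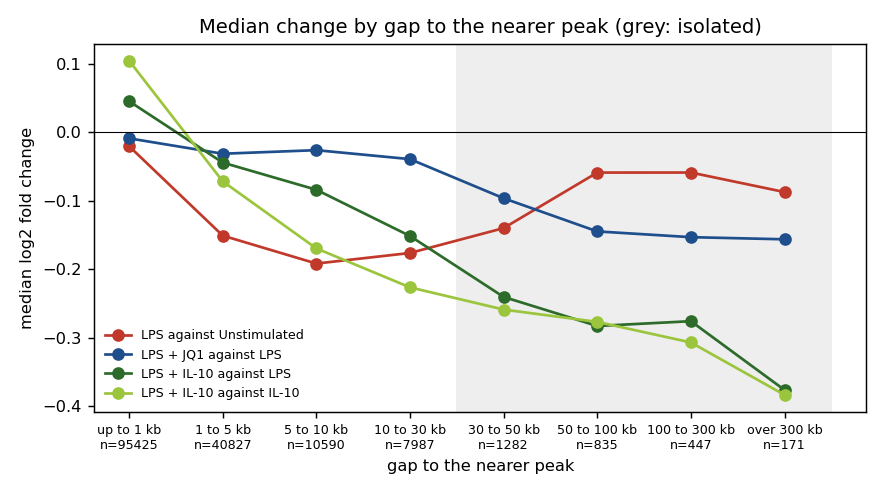
Median log2 fold change (y axis) of tested distal peaks by the gap to the nearer peak (x axis, with the number of peaks) for 4 comparisons; isolated peaks are on the grey ground. With LPS + IL-10 the medians go from 0.05 and 0.10 at gaps up to 1 kb to -0.38 over 300 kb in both comparisons, while LPS against Unstimulated stays between -0.19 and -0.02.

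Without LPS, each treatment was set against Unstimulated. (+)-JQ1 against Unstimulated gave 37 increased (1.35%, against 7.85% of all peaks) and 90 decreased DARs (3.29%, against 3.15%), and IL-10 against Unstimulated 45 increased (1.65%, against 5.16%) and 178 decreased (6.51%, against 3.5%). With loess offsets these were 36 and 21 for (+)-JQ1 and 38 and 35 for IL-10, and with total counts 6 and 324, and 13 and 284, when the medians of all peaks were -0.37 and -0.26, so the direction on balance depended on the scaling. The 127 calls with (+)-JQ1 became 44 without replicate 1 and 23 without replicate 2, and the 223 with IL-10 became 34 and 31. Both comparisons share the Unstimulated libraries with LPS against Unstimulated, so a high or low value there enters all 3. Of the 362 isolated peaks that decreased with LPS, 51 decreased with (+)-JQ1 alone and 116 with IL-10 alone, while 5 and 4 increased. Of the 170 that increased with LPS, 11 and 10 increased, while 1 and 0 decreased. The same overlaps were not computed for all peaks. The largest increase with (+)-JQ1 was at chr12:39926270-39927008, 363 kb from Etv1, an ETS factor gene, with 18.9, 18.6 and 20.7 normalised counts in Unstimulated and 52.8, 47.5 and 39.4 with (+)-JQ1 (log2 fold change 1.25, SE 0.31, edgeR adjusted p = 0.00157). It lost its call without replicate 2 (edgeR adjusted p = 0.0644). The Arhgap15 peak rose by 1.03. Decreases in introns of Enox1 (-1.11) and Zcwpw2 (-0.95) lost their calls without replicate 1 and without replicate 2, with edgeR adjusted p = 0.286 and 0.0831 for the first and 0.0503 and 0.375 for the second, and that of Zcwpw2 also without replicate 3, with loess offsets, in DESeq2 and in a fit of distal peaks alone.

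With IL-10 alone, a peak 649 kb from its nearer neighbour, chr1:110155727-110156433, rose. Normalised counts were 27.7, 48.7 and 50.6 in Unstimulated, 111, 93.5 and 92.1 with IL-10, and 59.4, 43.7 and 40.7 with LPS + IL-10 (log2 fold change for IL-10 1.20, SE 0.23, edgeR adjusted p = 0.000165), so only the IL-10 libraries without LPS were above 90. A peak on chromosome X near Gm4906 rose by 1.29 but lost its call without replicate 2 (edgeR adjusted p = 0.0673). The decrease in Cntnap5c (-1.18) rested on an unstimulated library at 92.1 beside 34.2 and 35.1, and was -0.41 without replicate 1 (edgeR adjusted p = 0.620). The decrease in Wwox, an oxidoreductase gene, was -1.10, and -0.86 without replicate 1 (edgeR adjusted p = 0.136) and -1.10 without replicate 2 (edgeR adjusted p = 0.0745).

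The LPS response could also be read within each treatment, from libraries that LPS against Unstimulated did not use. LPS + (+)-JQ1 against (+)-JQ1 gave 42 increased (1.54%, against 5.69% of all peaks) and 124 decreased isolated peaks (4.53%, against 3.58%), and LPS + IL-10 against IL-10 gave 59 (2.16%, against 8.93%) and 275 (10.1%, against 6.47%). The 166 calls of the first became 83, 81 and 97 without replicate 1, 2 and 3, and the 334 of the second 221 without replicate 2 and 154 without replicate 3. Of the 362 isolated peaks that decreased with LPS alone, 60 (16.6%) also decreased with LPS after (+)-JQ1, which is 48.4% of the 124, and 92 (25.4%) after IL-10, which is 33.5% of the 275. Of the 170 that increased, 21 (12.4%, and 50.0% of 42) and 24 (14.1%, and 40.7% of 59) did so. In all 3 arms 7 isolated peaks increased and 34 decreased. These overlaps were not computed for all peaks or for other distal peaks. Whether they are particular to isolated peaks was not tested. Across the 2735 peaks the fold changes of LPS against Unstimulated correlated with those after (+)-JQ1 at Pearson's r = 0.42 and after IL-10 at r = 0.39, as a description across peaks of libraries of cells from 3 mice.

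The test of whether the LPS effect differed with treatment called fewer peaks. At an FDR under 0.05, the interaction with (+)-JQ1 was positive in 14 isolated peaks (0.512%, against 0.649% of all peaks) and negative in 17 (0.622%, against 3.19%). The interaction with IL-10 was positive in 25 (0.914%, against 2.01%) and negative in 86 (3.14%, against 5.9%). Negative interactions were called in 11.2% of promoter and 1.34% of other distal peaks for (+)-JQ1, and in 16.9% and 3.33% for IL-10. Positive ones were called in 0.614% and 0.660%, and in 1.40% and 2.18%. Without replicate 1, 2 and 3 the 31 calls for (+)-JQ1 became 6, 0 and 36 in edgeR, with 228 peaks at an unadjusted p under 0.05 without replicate 2 and 16 calls by DESeq2 in all libraries, and the 111 for IL-10 became 46, 17 and 67. With total counts, which moved the median interaction of all peaks to 0.29 and 0.31, the splits were 34 and 3, and 64 and 29. With loess offsets they were 2 and 15, and 10 and 80.

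The isolated peaks with the highest signal per kb were chr13:13980997-13982270, 65.3 kb from B3galnt2, a glycosyltransferase gene, at a mean of 319 normalised counts, chr19:8286615-8287443 in an intron of Slc22a29, an organic ion transporter gene, at 195, and chr5:110485639-110488042 near Gm17655 at 496. All 3 increased with (+)-JQ1 alone, by 0.51 near B3galnt2 (SE 0.15, edgeR adjusted p = 0.0114), 0.68 in Slc22a29 (SE 0.15, edgeR adjusted p = 0.000479) and 0.71 near Gm17655 (SE 0.14, edgeR adjusted p = 6.06e-05), and the peak in Slc22a29 also increased with IL-10 alone, by 0.55. Of promoter peaks, 22.9% increased with (+)-JQ1 alone. How the changes of these 3 isolated peaks depended on the scaling was not examined. With LPS against Unstimulated none was a DAR, at log2 fold changes of 0.29, 0.23 and 0.16. The unstimulated libraries of the first held 183, 239 and 347 normalised counts. The peaks farthest from any other lay in gene-poor stretches. They were chr8:101519824-101520377, 2843 kb from its neighbour and 283 kb from the cadherin gene Cdh8, chr14:93008321-93008926, 2297 kb from its neighbour and 1277 kb from the protocadherin gene Pcdh9, and chr8:51378809-51379350, 2182 kb from its neighbour. They held means of 15.8, 11.6 and 8.83 normalised counts, and none was a DAR in a comparison with LPS, (+)-JQ1 or IL-10, with standard errors of 0.41 to 0.54 for LPS against Unstimulated.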

How the data were processed

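The authors processed reads with PEPATAC, aligned them to mm9 with bowtie2, called peaks per library with MACS2 and classed peaks as distal with ChIPSeeker where they fell outside 1000 bp before to 100 bp after a TSS. The deposited values are raw counts per peak of the union set, not pooled. The counting tool is not given in the sources used here. Another 6 columns matched no sample and were not used. One further marker list is not reported here. Reads outside peaks were not counted, and intervals cover counting error only.

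Counts were fitted with edgeR 4.0.16 in R 4.3.3 (filterByExpr, TMM, 6 groups in one quasi-likelihood fit, Benjamini-Hochberg over all peaks) and as an alternative with DESeq2 1.42.0. The fit was tested on simulated data. Values per library were compared by exact permutation tests. Genes and sequence came from GENCODE vM1 and NCBIM37, the same build as mm9. The members and lists were chosen with earlier results of these data known. Named peaks were the 3 largest increases and decreases with LPS and with each treatment under LPS, and the 2 largest for each treatment alone, among DARs on assembled chromosomes with at least 30 mean normalised counts and the same direction in all 3 pairs. To these were added the 3 with the highest signal per kb, the 3 most isolated, and up to 15 DARs near inflammation or macrophage genes, of which there were 0. Sequences were shown for the first of each kind under LPS, the strongest and the most isolated, chromosome 18 left out.

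The labels do not tie replicate numbers to mice, so libraries with the same number, called pairs here, share only that number. Alternatives covered scaling, filter, replicate block, lane, distal peaks alone, a stricter FDR, each replicate left out, other gaps and motif windows, prior counts and summed counts.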

Additional observations from a re-analysis of the deposited data

Results flagged for a closer look

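The effect of LPS differed between treated and untreated cells, by the interaction test in edgeR (FDR under 0.05), in 14 isolated peaks upward and 17 downward for (+)-JQ1 and in 25 upward and 86 downward for IL-10. Among the named peaks, the one near Zdhhc15 had a smaller LPS effect after (+)-JQ1, by -1.55 on the log2 scale (SE 0.42, edgeR adjusted p = 0.0197). The LPS effect was greater after IL-10 at the peaks in Tbc1d5 (1.24, edgeR adjusted p = 0.0189), Arhgap15 (0.98, edgeR adjusted p = 0.0207) and Gfra1 (1.40, edgeR adjusted p = 0.0113). It was lower after IL-10 near Uprt (-1.64, edgeR adjusted p = 0.000890), near Gm4906 (-1.68, edgeR adjusted p = 0.00381), at the peak on chromosome 1 that is 649 kb from its neighbour (-1.29, edgeR adjusted p = 0.00620) and near B3galnt2 (-0.63, edgeR adjusted p = 0.0458). The call near Zdhhc15 was lost without any 1 of the replicates (edgeR adjusted p = 0.105, 0.263 and 0.0724 without replicate 1, 2 and 3) and with total counts (edgeR adjusted p = 0.0715). That in Tbc1d5 was lost without any 1 as well (edgeR adjusted p = 0.261, 0.0728 and 0.0909), as was that in Arhgap15 (edgeR adjusted p = 0.0792, 0.210 and 0.0895), which was also lost in distal peaks alone (edgeR adjusted p = 0.0511). Gfra1 lost it without replicate 2 and without replicate 3 (edgeR adjusted p = 0.0997 and 0.137), the peak near Gm4906 without replicate 2 (edgeR adjusted p = 0.0997) and the peak on chromosome 1 without replicate 1 and without replicate 2 (edgeR adjusted p = 0.0743 and 0.0762). Near B3galnt2 it was lost without replicate 1 and without replicate 2 (edgeR adjusted p = 0.267 and 0.394), with total counts and loess offsets (edgeR adjusted p = 0.174 and 0.310) and in DESeq2 (adjusted p = 0.0688). The call near Uprt held in every alternative fit, and all 8 values kept their sign. All but the peak near B3galnt2 had been named for a large change in a comparison that enters the interaction, from the same libraries. The sign and size of their interactions were largely set by that choice, and the adjusted p-values do not allow for it. Groups of 3 libraries were not tested for single outlying samples.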

How the results depend on the processing

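Of 117 counts of called isolated peaks recomputed, 70 stayed within 1.5 times the first count. With at least 10 counts in every library (1004 isolated peaks tested), the calls numbered 189 for LPS against Unstimulated, 46 for adding (+)-JQ1 and 89 for adding IL-10 to LPS, 58 and 45 for (+)-JQ1 and IL-10 against Unstimulated, 90 and 167 for LPS within (+)-JQ1 and within IL-10, and 16 and 72 for the interactions. At an FDR under 0.01 the same 9 counts were 249, 31, 87, 42, 66, 70, 185, 3 and 33. Without 1 replicate they ranged from 238 to 438, 31 to 46, 86 to 108, 23 to 165, 31 to 246, 81 to 97, 154 to 259, 0 to 36 and 17 to 67. DESeq2 gave 47 for LPS + (+)-JQ1 against LPS and 16 for the interaction with (+)-JQ1. (+)-JQ1 against Unstimulated gave 330 with total counts and 57 with loess offsets, IL-10 against Unstimulated 73 with loess offsets, and the interaction with (+)-JQ1 17 with loess offsets and 17 in distal peaks alone. The count minimum and leaving out a replicate leave fewer peaks or libraries, and for the other settings the cause was not tested.

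The replicate block gave 528, 82, 205, 127, 210, 162, 339, 35 and 116 calls and moved no count by over 1.5 times. Libraries with the same number deviated from their group means with a mean correlation of 0.0200 in isolated peaks (-0.0756 to 0.0872 over 45 pairs), against -0.0100 for other pairs, and 14 of 18 were closest to their own number, a hint from the data and not the design. The difference between isolated and other distal peaks for LPS + IL-10 against LPS stayed between -0.29 and -0.18. For (+)-JQ1 against Unstimulated it turned from -0.00967 to 0.0602 in peaks of at least 30 normalised counts, 0.0892 within classes of mean counts and 0.00235 with a gap of 50 kb, and ranged from -0.0295 to 0.0240 without 1 replicate. For IL-10 against Unstimulated it turned from -0.0291 to 0.0642 and 0.0799 in the first and second of these, and ranged from -0.0550 to 0.0158. The CTCF difference for LPS + IL-10 against LPS turned from 0.00326 to -0.00656 with a prior count of 5, -0.0340 with summed counts and -0.0496 in peaks of at least 30, and ranged from -0.0245 to 0.0319. That of PU.1 for LPS + (+)-JQ1 against LPS turned from 0.0405 to -0.0176 with summed counts and -0.0452 in peaks of at least 30, and that of AP-1 ranged from -0.0200 to 0.0145 without 1 replicate. The share with a CTCF core was 11.1% in the central 200 bases (other distal peaks 1.32%), and 10.4% and 15.2% with gaps of 20 and 50 kb. Of 26 named changes 16 kept their call in every fit and none turned. No unplaced contigs were among the peaks, so leaving them out was not run. Low counts limit single peaks: 685 of 2748 reached 30 normalised counts.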
